A study of Rattus norvegicus with 6 samples.

Results

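The genes described here steer growing axons or build the growth cone: the semaphorins, Slits, netrin and ephrins that act as guidance cues, their plexin, neuropilin, Robo, DCC, UNC5 and Eph receptors, adhesion molecules of axons, cytoskeletal proteins of growing neurites, and the myelin protein Nogo with its receptor. The list held 41 genes, and a gene was taken in where a probe of the array carried its symbol and no other. Of the 41 genes, 35 had such a probe, with 61 probes in all among the 33849 of the series table. All 61 passed the filter on missing values, as did 33249 of all probes. Dpysl3, Sema6a, Plxna1, Plxna4, Efna1 and Efnb2 had no probe with that single symbol and were not analysed here.

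RNA came from cultured brainstem cells of 2 inbred rat strains. The spontaneously hypertensive rat (SHR) becomes hypertensive with age, and the Wistar Kyoto rat (WKY) serves as its normotensive comparison. Each strain had 3 single-colour CodeLink arrays, and each array carried RNA of cells pooled from 3 dishes. The labels give no treatment, time in culture, age or sex. They call the pools biological replicates but name no litter or culture for them, and p-values here rest on how far the pools of a strain lay apart. The question was which transcripts are more or less abundant in SHR cells. Values are log2 spot intensities after the submitters' normalization, and differences are SHR minus WKY, so that 1 unit is a 2-fold difference. In pooled cultures, fewer cells of a type and less RNA per cell cannot be told apart.

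Axons are guided by secreted or membrane-bound cues that attract or repel the growth cone through receptors on its surface. Slits repel through Robo receptors, class 3 semaphorins through neuropilins and plexins, ephrins through Eph receptors, and netrin attracts through DCC or repels through UNC5 receptors. In the hindbrain these cues decide which axons cross the midline, and after development many of them are also made by glia, meningeal cells and blood vessels.

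Before normalization, the median signal of the arrays ran from 439 to 572 intensity units. Correlations across probes were 0.969 to 0.979 within a strain and 0.964 to 0.977 across strains, so that the strains did not separate on that measure. Of 8 astrocyte markers, 7 were bright, as Gfap, the astrocyte filament gene, at means of 13.90 ± 0.28 (SD, n = 3) in SHR against 13.95 ± 0.15 in WKY, while Slc1a2, a glutamate transporter gene, was dim at 7.02 and 6.88. Aif1, a microglial gene, stood at 15.21 and 15.18. Of 12 neuron markers, 8 were measured and lay at all levels. Uchl1 (14.18 and 14.02), Eno2 (12.47 and 13.00) and Elavl3 (11.66 and 12.50) were bright, Nefl, Nefm and Elavl4 lay between 7.89 and 9.45, and Nefh (6.12 and 5.72) and Snap25 (5.43 and 6.02) were among the dimmest probes tested. They did not share a direction, with 4 above 0 and 4 below, from 0.40 (Nefh) to -0.84 (Elavl3).

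No guidance gene passed an adjusted p of 0.05 in limma, and neither did any other probe of the array (0% of 33249). The smallest adjusted p among the 35 genes was 0.527, that of Slit2. The counts below therefore use an unadjusted p under 0.05, which 2545 probes reached (7.65%), 3.65% of probes higher and 4.01% lower in SHR. Taking for each gene its brightest probe measured on all arrays, 2 of 35 guidance genes reached it, Slit2 higher and Robo2 lower in SHR. This share, 5.71%, lay near that of all probes, and near the 6.85% of 12082 named genes taken at 1 probe each. The SHR and WKY values did not overlap at 4 of the 35 genes, Slit2 and Stmn2 higher and Robo2 and Slit1 lower, which is 11.4%, beside 13.8% of all probes (6.35% higher and 7.48% lower) and 14.2% of named genes. Differences of the 35 genes ran from -0.81 to 0.76, with SEs from 0.13 to 0.49, and 30 of them were under 0.5 in size. The differences were below 0 at 24 genes and above 0 at 11, with a median of -0.11, against a median of -0.01 over all probes, of which 48.4% were above 0. In intensities not normalized between arrays, where the median of all probes moved to 0.12, only 16 genes were below 0 and their median was 0.04, which is -0.07 relative to all probes.

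**Figure D1:**
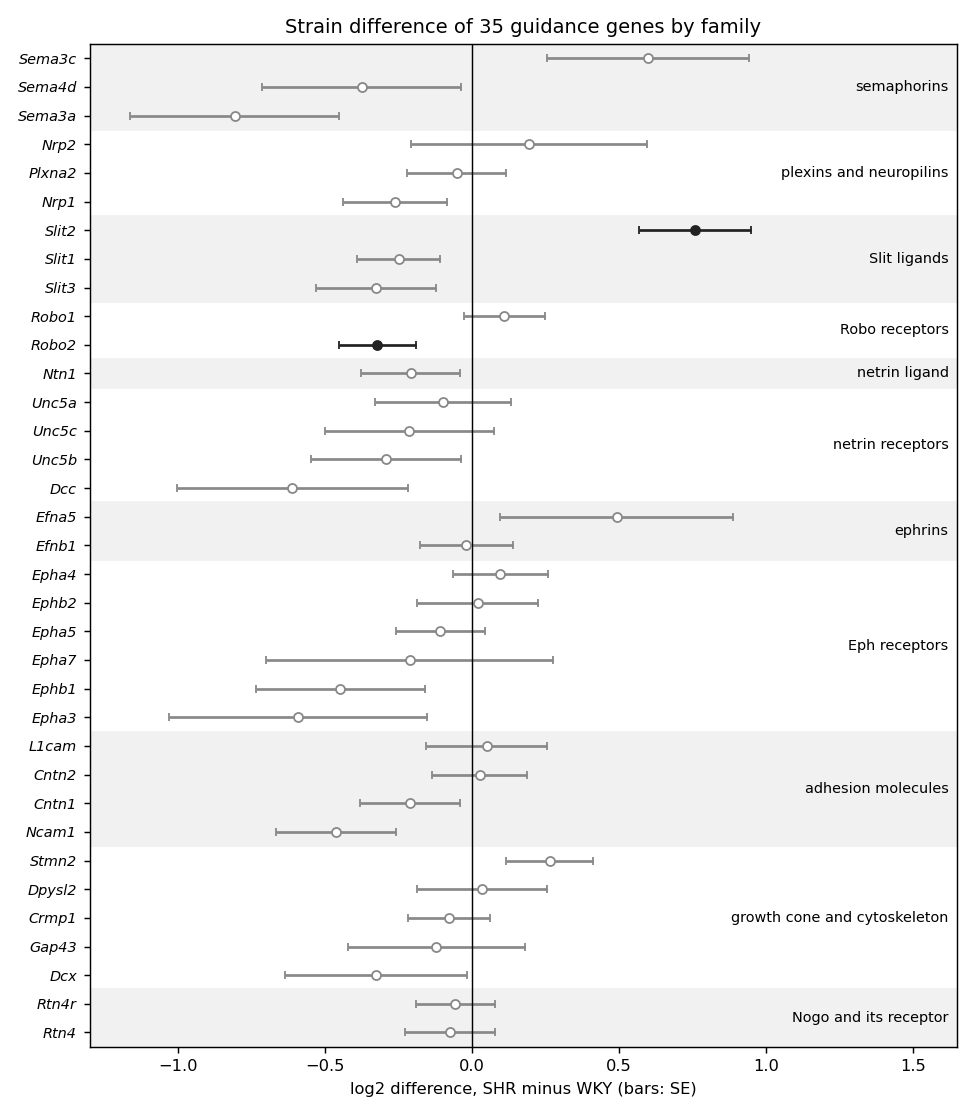
Log2 difference, SHR minus WKY, of the 35 guidance genes at their brightest complete probe, grouped by family, with bars for the SE. Filled points mark Slit2 (0.76) and Robo2 (-0.32), the 2 genes with an unadjusted limma p under 0.05; the other genes, open points, lie on both sides of 0.

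Slit ligands and Robo receptors held both of these genes, and the 2 pointed in opposite directions. Slit2, a secreted repellent of the midline, gave 11.17, 10.52 and 10.99 on the SHR arrays and 10.09, 10.21 and 10.11 on the WKY arrays. All SHR arrays were brighter than all WKY arrays, and the WKY arrays lay close together while SHR 2 was the lowest of its strain. The difference was 0.76 ± 0.19 (SE), a 1.69-fold higher signal in SHR (limma, unadjusted p = 0.00647, adjusted p = 0.527, and adjusted p between 0.252 and 0.871 over the alternatives). Slit2 had 1 probe, and its difference lay between 0.62 and 0.94 in all 18 alternatives, with an unadjusted p under 0.05 in each of the 18.

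The other Slits did not share that direction. Slit1, a paralog of the nervous system, gave 8.66, 8.98 and 8.87 in SHR against 9.03, 9.19 and 9.03 in WKY. Its strains did not overlap, but the difference of -0.25 ± 0.14 missed an unadjusted p of 0.05 (limma adjusted p = 0.695). Slit3 differed by -0.33 ± 0.20, with the SHR arrays between 8.19 and 8.35 and the WKY arrays between 8.21 and 8.94, so that the ranges overlapped. Slit1 and Slit3 stayed below 0 in all 18 alternatives.

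Robo2, a Slit receptor, had 4 probes, and all 4 were lower in SHR. The brightest gave 10.55, 10.66 and 10.49 in SHR against 10.80, 11.03 and 10.83 in WKY, with no overlap and a difference of -0.32 ± 0.13 (limma adjusted p = 0.646, and 0.464 to 0.975 over the alternatives). The next probe gave 9.46, 9.54 and 9.43 in SHR against 9.59, 9.88 and 9.86 in WKY, a difference of -0.30 ± 0.14 and again no overlap. The dim probes differed by -0.27 ± 0.26 and -1.11 ± 0.27. The last value leaves out WKY 3, whose entry was not above 0 in the series table and was 9.90 intensity units in the per-sample table, where the SHR arrays read 51.9, 41.1 and 77.1. With that array counted as low, the strains would overlap at this probe. The unadjusted p of the brightest probe was under 0.05 in 8 of 18 alternatives; the difference was -0.13 in intensities not normalized and between -0.37 and -0.25 with an array left out, where the p was never under 0.05.

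Robo1, the other Slit receptor of the list, gave 9.24, 9.42 and 9.32 in SHR against 9.05, 9.34 and 9.25 in WKY. The arrays overlapped, and the difference was 0.11 ± 0.14. Slit2 and its receptors thus stood at 1.69-fold, 1.08-fold higher (Robo1) and 1.25-fold lower (Robo2) in SHR, and of these 3 the Robo1 value was within its error.

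**Figure D2:**
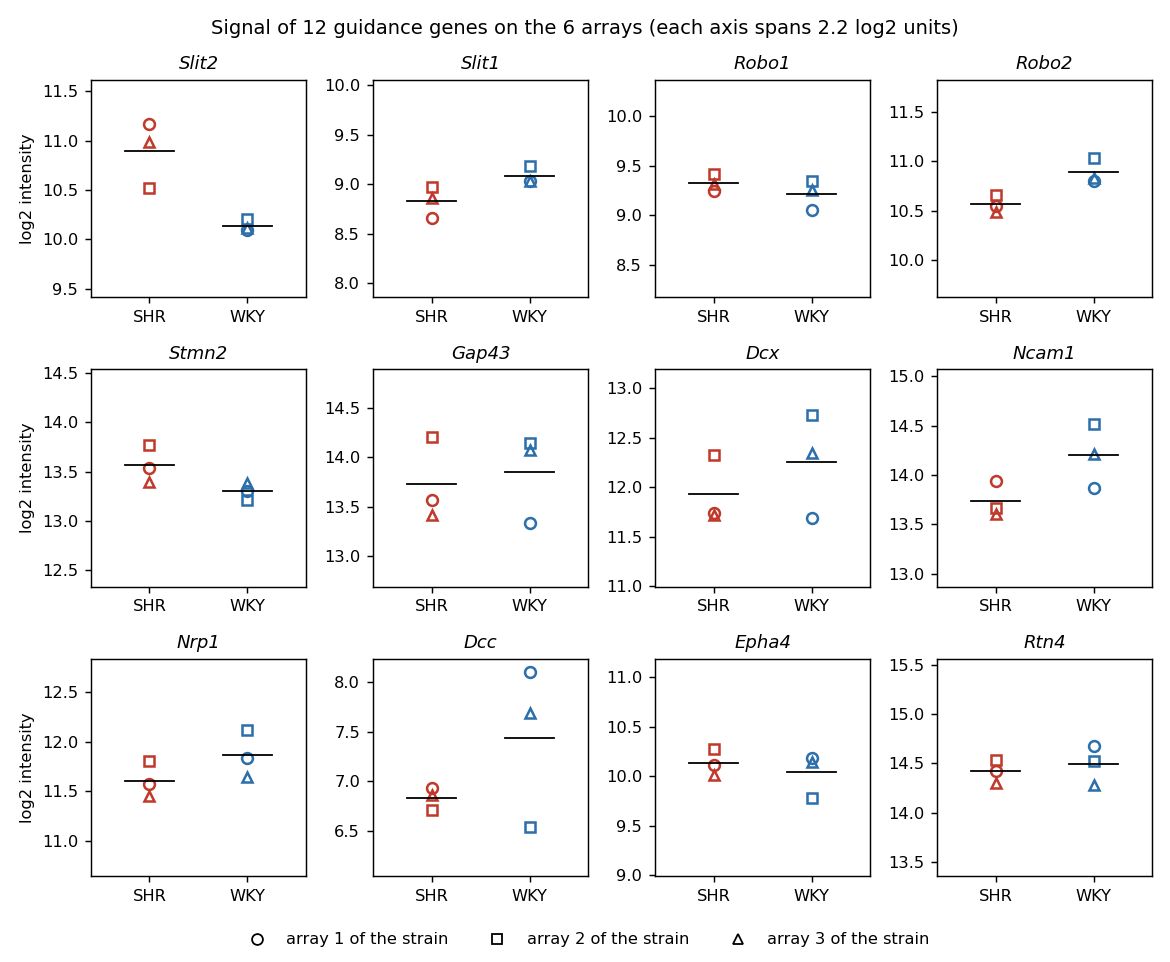
Log2 intensity of 12 guidance genes on each array, SHR on the left and WKY on the right of each panel, with symbols for the array number and a line for the strain mean. Slit2 (10.52 to 11.17 in SHR, 10.09 to 10.21 in WKY), Slit1, Robo2 and Stmn2 show no overlap, and in the other 8 panels the strains overlap.

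The promoter of Robo2 is shown because Robo2 is the guidance receptor of the list with an unadjusted p under 0.05. Sema4b and Dscam, described further on, are guidance genes outside the list. Their promoters are shown because they had the smallest unadjusted p there when each gene was taken at its brightest complete probe. The sequences are the 250 bases before the annotated start, from RefSeq on build GRCr8, which is not tied to the array's own design. The table matched 26 of the 41 genes by symbol; Slit2, Slit1 and Stmn2 were not among them. Capitals mark the GC box GGGCGG, a motif bound by Sp1-type factors, on either strand. Robo2 lies at chr11:26526413-26526662 on the minus strand, Sema4b at chr1:143558547-143558796 on the plus strand and Dscam at chr11:49976516-49976765 on the minus strand.
Robo2: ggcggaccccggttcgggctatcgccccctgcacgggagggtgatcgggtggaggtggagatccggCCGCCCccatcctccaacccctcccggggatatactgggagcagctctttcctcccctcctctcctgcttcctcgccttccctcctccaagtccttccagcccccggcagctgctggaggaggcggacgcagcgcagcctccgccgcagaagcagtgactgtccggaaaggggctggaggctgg
Sema4b: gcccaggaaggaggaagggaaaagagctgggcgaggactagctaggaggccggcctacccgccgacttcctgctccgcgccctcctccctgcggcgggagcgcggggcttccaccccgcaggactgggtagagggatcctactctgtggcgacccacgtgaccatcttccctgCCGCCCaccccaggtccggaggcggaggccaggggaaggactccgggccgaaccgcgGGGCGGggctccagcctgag
Dscam: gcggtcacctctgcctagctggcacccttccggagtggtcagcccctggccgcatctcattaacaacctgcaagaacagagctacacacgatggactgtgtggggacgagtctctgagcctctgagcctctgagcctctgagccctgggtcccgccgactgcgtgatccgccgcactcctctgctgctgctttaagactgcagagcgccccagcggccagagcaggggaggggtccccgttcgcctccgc

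The 3 stretches are rich in G and C, at 69.2% for Robo2, 71.6% for Sema4b and 64.8% for Dscam, against a median of 51.2% over 33469 promoters of the table. Promoters of the listed genes had a median of 64.4%, from 35.2% to 80.4%, so that this was not particular to the 3 shown. A GC box occurred once in Robo2, 2 times in Sema4b and not in the Dscam window. It occurs in 30.5% of all promoters of that length and in 11 of 28 promoters of the listed genes. Neither the TATA box TATAAA (12.9% of all promoters) nor the CCAAT box (34.0%) was found in the 3 windows on either strand. The E-box CANNTG (65.5% of all promoters), which overlapped no GC box here, occurred in Robo2 and Sema4b. These matches describe the letters only.

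Among growth cone and cytoskeletal genes, Stmn2, which encodes the microtubule-destabilising protein SCG10 of growing neurites, was the gene whose strains did not overlap. Its brightest probe gave 13.54, 13.77 and 13.39 in SHR against 13.30, 13.22 and 13.39 in WKY, where the lowest SHR array and the highest WKY array agreed to the second decimal. The difference was 0.26 ± 0.15 (limma adjusted p = 0.694, and 0.568 to 0.950 over the alternatives). The second probe gave 12.90, 13.14 and 12.59 in SHR against 12.36, 12.52 and 12.60 in WKY, a difference of 0.38 ± 0.18, with overlap.

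Gap43, the growth-associated protein of growth cones, did not share that pattern. Its brightest probe gave 13.57, 14.21 and 13.41 in SHR against 13.33, 14.15 and 14.07 in WKY, and the second gave 13.60, 14.08 and 13.18 in SHR against 13.23, 14.16 and 14.14 in WKY. At both probes SHR 2, WKY 2 and WKY 3 were high and SHR 1, SHR 3 and WKY 1 low, so that the spread lay within the strains. The differences were -0.12 ± 0.30 and -0.22 ± 0.34, and the first turned to 0.020 in intensities not normalized and to 0.037 and 0.027 without SHR 3 and without WKY 2.

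Dcx, the doublecortin gene of young and migrating neurons, followed the same order of arrays, with 11.75, 12.33 and 11.72 in SHR against 11.69, 12.73 and 12.35 in WKY. Its difference was -0.33 ± 0.31 at this probe, and -0.50 ± 0.28 and 0.67 ± 0.43 at dim probes, the last without WKY 2, whose entry was not above 0. Dpysl2 and Crmp1, which encode collapsin response mediator proteins that carry semaphorin signals to microtubules, differed by 0.03 ± 0.22 and -0.08 ± 0.14. The direction of Dpysl2 turned without single arrays, and that of Crmp1 in intensities not normalized.

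Of the semaphorins, 3 of 4 were measured, and Sema3a, Sema3c and Sema4d all missed an unadjusted p of 0.05 at their brightest complete probe. Sema3a, the secreted repellent that collapses growth cones, had the largest difference below 0 of the 35 genes, at -0.81 ± 0.36. Its spots were dim, at 6.01, 7.16 and 6.57 in SHR against 7.04, 7.92 and 7.20 in WKY, and SHR 2 lay within the WKY range. Sema3c, which attracts some axons, differed by 0.60 ± 0.34, with WKY 1, at 9.69, within the SHR range. A second Sema3c probe, measured on 5 arrays because WKY 2 held the missing code, differed by 0.08 ± 0.24.

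Sema4d, a membrane-bound semaphorin made by oligodendrocytes and immune cells, had 3 probes, at -0.37 ± 0.34, -1.34 ± 0.53 and -0.30 ± 0.21. The second gave 10.85, 12.77 and 11.09 in SHR against 12.58, 13.40 and 12.75 in WKY (limma adjusted p = 0.639). SHR 1 and SHR 3 were low there, whereas SHR 2 lay within the WKY range. The mean deviation of 9 oligodendrocyte markers from their 6-array means was -0.61, 0.28 and -0.77 in SHR against 0.29, 0.53 and 0.27 in WKY, with the same arrays low. The strain difference was below 0 at all 9 markers, and log2 of their summed signal ran from 15.93 to 16.78 in SHR and from 16.68 to 16.90 in WKY. Their part in the Sema4d values was not tested.

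Of the semaphorin receptors, Nrp1, the neuropilin that binds Sema3a and also vascular growth factor, had 3 probes, all lower in SHR. The brightest gave 11.57, 11.80 and 11.45 in SHR against 11.84, 12.12 and 11.65 in WKY, with overlap and a difference of -0.26 ± 0.18. The others differed by -0.05 ± 0.14 and -0.34 ± 0.18, and only at the last did the strains not overlap. Nrp2, a receptor of other class 3 semaphorins, differed by 0.19 ± 0.40 on dim spots, and Plxna2, a plexin, by -0.05 ± 0.17 and, at its second probe, by -0.18 ± 0.18. The direction of both turned in 1 fit with an array left out, and that of Plxna2 also in intensities not normalized (0.12).

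Ntn1, the netrin cue, and its 4 receptors were all below 0, except Unc5a in intensities not normalized (0.044) and without WKY 1 (0.091), and all 5 missed an unadjusted p of 0.05. Ntn1 differed by -0.21 ± 0.17, and by -0.24 ± 0.34 at a dim probe whose SHR 1 entry was not above 0. Dcc, the attractive netrin receptor, gave 6.93, 6.71 and 6.86 in SHR against 8.10, 6.53 and 7.69 in WKY. WKY 1 and WKY 3 were the bright arrays, WKY 2 was the dimmest of the 6, and the difference was -0.61 ± 0.39 (-1.07 without WKY 2 and -0.28 without WKY 1), with 0.045 ± 0.45 at the second probe. The repulsive receptors Unc5a, Unc5b and Unc5c differed by -0.10 ± 0.23, -0.29 ± 0.25 and -0.21 ± 0.29. Unc5b had a second probe on the other side of 0, at 0.24 ± 0.34.

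Ephrins and Eph receptors, which signal at cell contacts, showed no gene with an unadjusted p under 0.05 at its brightest complete probe. Of the ephrins, 2 of 4 were measured: Efna5, anchored to the membrane by lipid, differed by 0.49 ± 0.40, and Efnb1, a transmembrane ephrin, by -0.02 ± 0.16. Of the receptors, Epha3 (-0.59 ± 0.44), Ephb1 (-0.45 ± 0.29), Epha7 (-0.21 ± 0.49) and Epha5 (-0.11 ± 0.15) were below 0, and Epha4 (0.10 ± 0.16) and Ephb2 (0.02 ± 0.21) above it. The sign of Efnb1 and Epha5 turned in intensities not normalized, and that of Epha4, Epha5, Epha7, Ephb2 and Efnb1 with single arrays left out. A second Epha5 probe gave 9.14, 9.04 and 9.06 in SHR against 9.30, 9.76 and 9.85 in WKY, without overlap, at -0.56 ± 0.18 (limma adjusted p = 0.572). A further probe gave -0.32 ± 0.24, so that all 3 probes of Epha5 were below 0. The second Epha7 probe gave -0.69 ± 0.38, and dim probes of Efnb1 gave -0.22 ± 0.30 and 0.24 ± 0.45.

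Epha4, a receptor for ephrins of both classes, was the gene whose probes differed most. The brightest gave 10.11, 10.27 and 10.02 in SHR against 10.19, 9.78 and 10.14 in WKY, with overlap and a difference of 0.10 ± 0.16, and 2 further probes gave 0.15 ± 0.15 and -0.10 ± 0.21. The remaining probe gave 5.46, 9.16 and 6.25 in SHR against 9.52, 8.85 and 8.92 in WKY, a difference of -2.14 ± 0.91. There SHR 1 and SHR 3 were dim and SHR 2 lay within the WKY range, as at the Sema4d probe. The per-sample intensities behind these SHR values were 40.9, 656 and 76.2 units, so that the gap was present before normalization. Which transcripts the 4 probes read is not given in the sources used here.

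**Figure D3:**
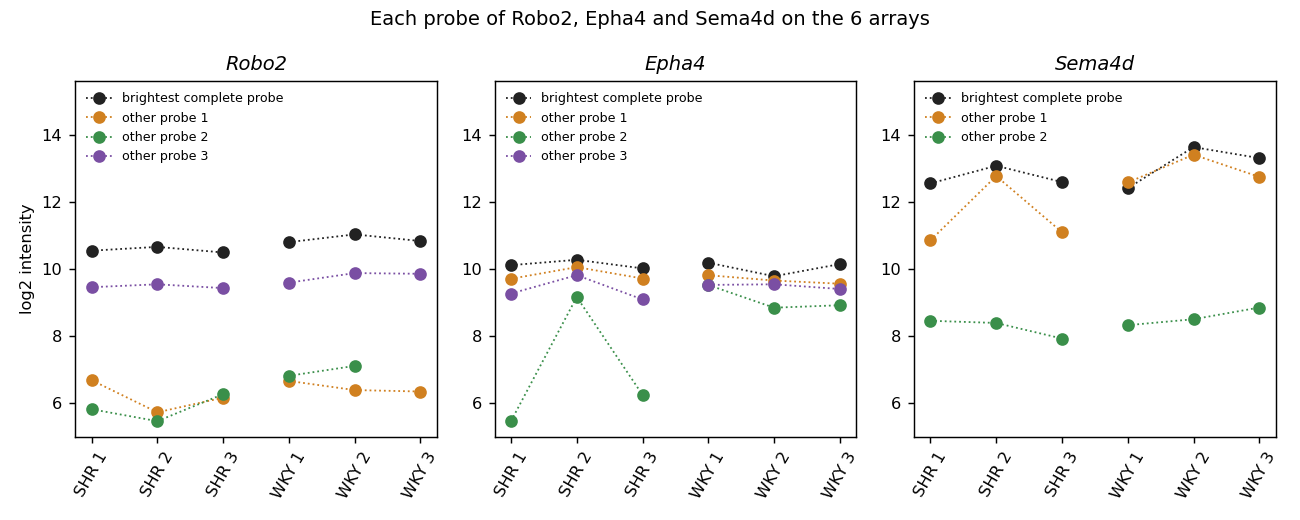
Log2 intensity of each probe of Robo2, Epha4 and Sema4d on the 6 arrays, a colour for each probe, with dotted lines joining arrays of the same strain. A single Epha4 probe and a single Sema4d probe dip on SHR 1 (5.46 and 10.85) and SHR 3 (6.25 and 11.09), while the other probes of these genes vary less over the SHR arrays.

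Among the adhesion molecules of axons, Ncam1, the neural cell adhesion molecule, gave 13.94, 13.67 and 13.61 in SHR against 13.87, 14.52 and 14.21 in WKY. WKY 1 lay within the SHR range, and the difference was -0.46 ± 0.20 (limma adjusted p = 0.655, and 0.402 to 0.987 over the alternatives). Its unadjusted p was under 0.05 in 5 of 18 alternatives. Cntn1, a contactin of neurons and oligodendrocyte precursors, differed by -0.21 ± 0.17, L1cam, an adhesion molecule of axon bundles, by 0.05 ± 0.21, and Cntn2, a contactin of early axons, by 0.03 ± 0.16. The second Cntn2 probe gave -0.49 ± 0.23 without overlap. The directions of L1cam and Cntn2 turned in 4 of 18 alternatives each.

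Rtn4, the Nogo gene, whose product in myelin limits neurite growth, gave 14.43, 14.53 and 14.30 in SHR against 14.68, 14.52 and 14.28 in WKY at its brightest probe. The arrays overlapped and the difference was -0.07 ± 0.15, turning to 0.065 in intensities not normalized and to 0.019 without WKY 1. Its second probe gave 12.38, 12.93 and 11.87 in SHR against 12.80, 13.36 and 13.26 in WKY, a difference of -0.74 ± 0.30 (limma adjusted p = 0.646) with SHR 2 above WKY 1. Rtn4r, the Nogo receptor, differed by -0.06 ± 0.13, and turned above 0 in intensities not normalized (0.11) and in 1 fit with an array left out.

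Of the 35 genes, 17 had several probes, and 11 of these had the same direction at all of them in the normalized values. Robo2, Sema4d, Nrp1, Epha5, Epha7, Gap43, Ntn1, Plxna2 and Rtn4 were below 0 at all their probes, and Stmn2 and Sema3c above 0. Cntn2, Dcc, Dcx, Efnb1, Epha4 and Unc5b had probes on both sides. Over all 61 probes, 1 was higher (Slit2) and 5 were lower with an unadjusted p under 0.05 (2 of Robo2, and 1 each of Epha5, Rtn4 and Sema4d). This is 9.84%, against 7.65% of all probes (3.65% higher and 4.01% lower). Their strains did not overlap at 9 of 61 probes (14.8%, near the 13.8% of all probes), 2 higher and 7 lower in SHR.

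**Figure D4:**
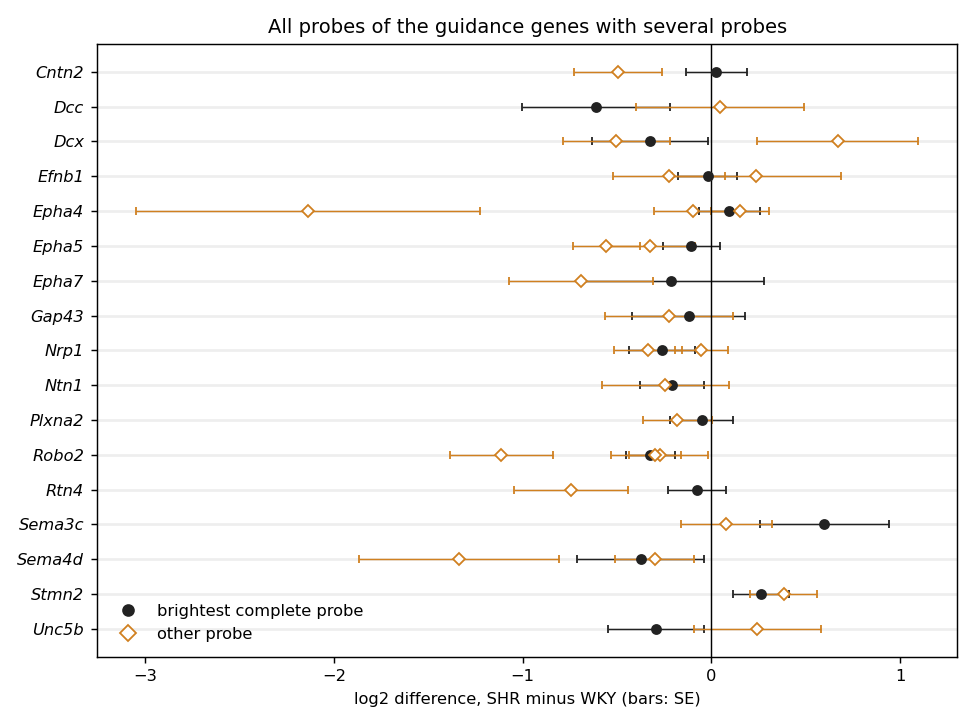
Log2 difference, SHR minus WKY, with SE bars, of every tested probe of the 17 guidance genes with several probes. Filled circles are the brightest complete probes and open diamonds the others; the widest spread is that of Epha4, from -2.14 to 0.15.

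Within SHR many guidance genes shared an order of arrays, while the order in WKY was mixed. SHR 2 was the brightest SHR array at 23 of 35 genes (65.7%), against 35.9% of all probes, and SHR 3 the dimmest at 18 (51.4%, against 33.8%). In WKY, array 2 was the brightest at 17 genes (48.6%, against 31.8%) and array 1 the dimmest at 17 (48.6%, against 34.8%). Array 2 was also the dimmest WKY array at 13 genes (37.1%, against 36.9%). The mean deviation of the 35 genes was -0.11, 0.06 and -0.12 on the SHR arrays and 0.01, 0.05 and 0.11 on the WKY arrays. SHR 2 thus lay within the WKY range, and WKY 3, not WKY 2, had the highest mean. The 8 measured neuron markers gave -0.31, 0.27 and -0.21 in SHR against -0.02, 0.30 and -0.03 in WKY, with SHR 2 and WKY 2 the highest of their strains. Their median difference was -0.05. Log2 of their summed signal ran from 14.71 to 15.04 in SHR and from 14.86 to 15.16 in WKY. The part of neurons and oligodendrocytes in the guidance gene values was not tested.

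Slit2 did not follow that order, since SHR 2 was its dimmest SHR array. Markers that stood higher in SHR with it were those of ependyma and choroid plexus, with mean deviations of 0.61, 0.55 and 0.63 in SHR against -0.90, -0.84 and -0.04 in WKY, and of meningeal fibroblasts, with -0.03, 0.68 and 0.58 in SHR against -0.39, -0.27 and -0.57 in WKY. Within SHR the meningeal list was lowest on SHR 1 and highest on SHR 2, the reverse of Slit2. Of these lists 3 of 4 and 7 of 8 markers were above 0. The median difference of the 8 meningeal markers was 0.81, and 4 of them were higher in SHR with an unadjusted limma p under 0.05. The brightest of the list, Col1a1 and Col1a2, were not among these 4 and differed by only -0.02 ± 0.17 and 0.20 ± 0.16. Log2 of their summed signal ran from 12.46 to 12.78 in SHR against 10.38 to 11.29 in WKY for ependyma and choroid plexus, and from 14.62 to 14.94 and 14.35 to 14.65 for meningeal fibroblasts. Their part in the Slit2 difference was not tested.

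**Figure D5:**
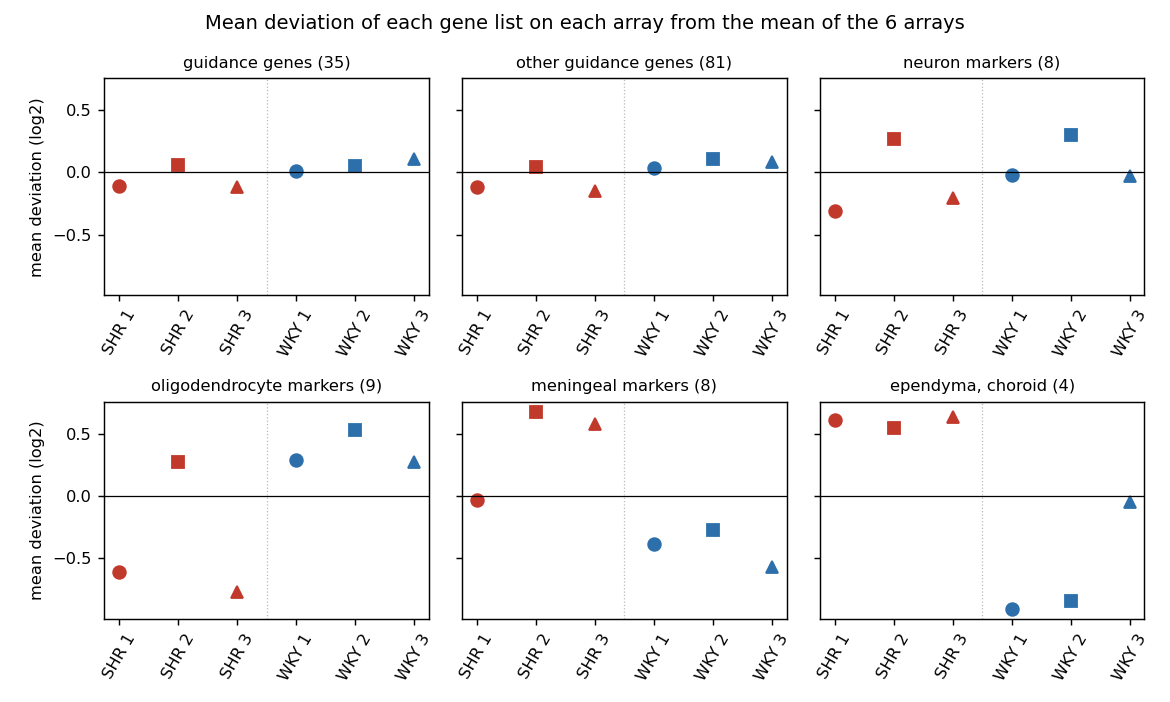
Mean log2 deviation of 6 gene lists on each array from the genes' 6-array means, SHR in red and WKY in blue. SHR 2 stands above SHR 1 and SHR 3 for the guidance genes (0.06 against -0.11 and -0.12). The same holds for the other guidance genes and the neuron, oligodendrocyte and meningeal markers, but not for the ependyma and choroid plexus list.

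The rest of the pathway, 105 further genes of guidance cues, receptors, adhesion and growth cone signalling, had 81 genes with a tested probe. Of these, 7 were lower and 0 higher in SHR with an unadjusted p under 0.05 (8.64%), and 0 passed an adjusted p of 0.05 in limma. Of all probes, 7.65% reached the unadjusted p, 4.01% lower and 3.65% higher in SHR. Their strains did not overlap at 14 genes (17.3%, beside 13.8% of all probes and 14.2% of named genes), 3 higher and 11 lower. Of all probes, 6.35% were higher and 7.48% lower without overlap. The median difference was -0.10, with 55 genes below 0 and 26 above. This is near the median of the 35 genes.

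Sema4b, a membrane-bound semaphorin, had the smallest p of these, with 10.64, 10.66 and 10.62 in SHR against 11.25, 11.14 and 11.52 in WKY. The SHR arrays agreed closely and all lay below WKY, at -0.66 ± 0.14 (limma adjusted p = 0.442). Dscam, an adhesion molecule that also binds netrin, gave 8.86, 9.13 and 8.51 in SHR against 9.33, 9.96 and 9.68 in WKY, at -0.82 ± 0.23 (limma adjusted p = 0.538). Both had an unadjusted p under 0.05 in all 18 alternatives.

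Gsk3b, a kinase of microtubule control in the growth cone, differed by -0.44 ± 0.16, and Ephb6, an Eph receptor without kinase activity, by -0.34 ± 0.13, with -0.01 ± 0.32 and 0.41 ± 0.33 at its other probes. Ngef, the exchange factor ephexin that acts downstream of Epha4, differed by -0.84 ± 0.29 on dim spots, in a fit without SHR 3, whose entry was not above 0. Efna2, an ephrin (-0.41 ± 0.16), and Srgap1, which acts below Robo receptors (-0.29 ± 0.12), completed the 7 genes and were named after their values were seen. A second, dim Srgap1 probe differed by -1.01 ± 0.48 without overlap. Sema3f, Nfasc and Neo1 were also chosen after their values were seen. Sema3f, a secreted semaphorin, was higher in SHR at 2 probes, by 0.35 ± 0.16 and 1.02 ± 0.26, and its strains did not overlap at either. Nfasc, an adhesion molecule, was lower at all its probes, at -0.99 ± 0.49, -0.77 ± 0.17, -0.19 ± 0.14, -0.83 ± 0.31 and -1.03 ± 0.42. Its strains did not overlap only at the second. Neo1, of the netrin receptors, was lower without overlap at both probes, by -0.27 ± 0.14 and -0.35 ± 0.12.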

How the data were processed

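Expression was measured on 6 CodeLink rat arrays, 3 of SHR and 3 of WKY. Per the series' design text, the authors read spot intensities with the background already subtracted in CodeLink software, dropped spots dimmer than the negative controls plus 2 SD, and quantile normalized the arrays; software versions and a genome build are not given in sources used here. The deposited intensities of the series table (median 520) were used on the log2 scale with no offset, after its 615 entries per array that were not above 0 had been set to missing. A probe was tested where a strain had 3 values and the other strain 2 or more. limma 3.58.1 (R 4.3.3; lmFit, eBayes) gave two-sided p-values, adjusted by Benjamini-Hochberg across the 33249 probes. This code was checked on simulated data. With 3 arrays against 3 an exact permutation test cannot go below p = 0.10, and the number of arrays limits the precision.

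Gene symbols came from the platform annotation (16753 probes with 1 symbol, 165 with several, 16931 with none). Each gene was represented by its brightest probe valid on all arrays. Other probes of the guidance genes named here are given beside it, and those of the marker genes are not. Genes described with every array value were those with an unadjusted p under 0.05 or without overlap, and a fixed set. The fixed set was Gap43, Stmn2, Dcx, Ncam1, Rtn4, Nrp1, Robo1, Dcc, Epha4 and the unmeasured Efnb2. Sema3a, the gene with the largest difference below 0, met none of these rules and was also given with every array value. Further probes with an unadjusted p under 0.05 or without overlap were chosen after they were seen. Of the other guidance genes, up to 5 per direction by smallest p were named. The gene list, the other lists and the rules were chosen with earlier results of these data known. Alternatives covered the source and normalization of the values, probe filters, an offset of 50, limma's variance model, a replicate block, the mean over a gene's probes (each centred first) and leaving out each array. Figures were drawn with matplotlib 3.10.9.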

Additional observations from a re-analysis of the deposited data

How the results depend on the processing

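The count of all probes past an adjusted p of 0.05, 0 as reported (2545 at an unadjusted p under 0.05), was 28 where the limma prior followed intensity and was robust, 10 with array weights, 18 once the dimmest 25% of probes were dropped, 7 with the mean over the probes of a gene, 6 with an offset of 50 and 5 with probes valid on all 6 arrays; at an adjusted p of 0.10 it was 13. It was 0 with an array left out and in the other normalizations. None of the 12 guidance genes described with array values passed an adjusted p of 0.05 in any alternative.

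Guidance genes with an unadjusted p under 0.05 numbered 2 as reported (7.65% of all probes), 1 with cyclic loess (7.19%) and with intensities not normalized (7.10%; Slit2), 4 with array weights (10.5%), and 1 to 6 with an array left out: 6 without WKY 1 (10.8%; Ephb1, Ncam1, Sema3c, Sema4d, Slit2, Slit3) and 1 without SHR 3 (5.44%) or WKY 3 (5.62%). Over all 61 probes, an alternative added after seeing the data, 6 probes of 5 genes reached it. Genes without overlap numbered 4; over all probes it was 9 probes of 7 genes, and with an array left out 5 to 16 genes (16 without WKY 1, where 31.2% of all probes did not overlap, and 8 without SHR 1 or SHR 2, at 22.7% and 30.0%), as fewer arrays make overlap rarer. The median difference was -0.11, 0.044 in intensities not normalized, and -0.21 with the mean over the probes of a gene and over all probes. Other guidance genes with an unadjusted p under 0.05 numbered 7 (7.65% of all probes) and 4 in intensities not normalized (7.10%). With the mean over the probes of a gene they were 11 (7.88% of named genes). With an array left out they ran from 3 (without WKY 3, 5.62% of all probes) to 15 (without SHR 2, 10.7%). They were 4 without SHR 1 (6.33%), SHR 3 (5.44%) or WKY 2 (6.90%).

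Of the 35 genes, 20 kept their direction in all alternatives run for them (18, or 17 for Sema3a, Dcc, Efna5 and Epha3) and 26 in all 4 normalizations. Among the 12, Gap43 (0.020) and Rtn4 (0.065) turned in intensities not normalized, and Epha4 turned to -0.50 with the mean over its probes, which takes in the probe at -2.14. With an array left out, the range was -0.38 to 0.037 for Gap43, -0.18 to 0.019 for Rtn4 and -0.032 to 0.17 for Epha4. Slit2, Slit1, Robo1, Robo2, Stmn2, Dcx, Ncam1, Nrp1 and Dcc kept their direction.

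In a limma fit with a replicate block, 3 of the 35 genes had an unadjusted p under 0.05, beside 8.42% of all probes. They were Slit2, Sema3a and Sema3c, and Robo2 was no longer among them. In that fit 0 of all probes passed an adjusted p of 0.05. Arrays of the same number deviated from the strain means with correlations of -0.0017, 0.21 and -0.12, so that the numbers were not shown to pair the arrays. Beyond those named, causes were not tested.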
